A study of Mus musculus with 8 samples.

Results

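The regions described here were open in 3 kinds of bone marrow progenitor and less open in 1 other. They were selected from ATAC-seq counts, an assay in which the Tn5 transposase cuts and tags accessible DNA. A region was a member when its mean accessibility was at least 6 CPM (counts scaled to a library total of 1000000) in GMP-MoP, in proNeu1 and in cMoP, and at least 2-fold the proNeu2 mean in each of the 3. Of 61196 regions, 28120 met the level part of this rule, and 718 of those (2.55%) also met the fold part and are the members. The remaining 27402 are called level-only regions below. The differences from proNeu2 chose the members, so they are given as a description. Where the fit over all regions called such a difference, the call is used to sort the members and not as evidence of it.

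The 8 libraries came from mouse bone marrow, with 5000 sorted progenitor cells in each tube. They form 4 groups of 2 libraries, named proNeu2, GMP-MoP, proNeu1 and cMoP in the labels. No genotype, treatment, strain, age or sort gate is stated for any group in the labels. The libraries are numbered as biological replicates without naming separate animals, so a p-value measures the spread between these libraries, which may be partly technical.

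As background, GMP-MoP and cMoP are names used for monocyte-committed progenitors, and proNeu1 and proNeu2 for successive early stages of the neutrophil lineage. Active promoters and enhancers are usually accessible to the transposase, and an element that goes out of use usually loses that access. Transcription factors such as PU.1, the C/EBP family, RUNX1, IRF8, GFI1 and ZEB2 shape accessibility at this branch of blood formation. The series asks how the chromatin of GMP-MoP stands relative to that of proNeu1 and the other progenitors.

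Most members lie outside promoters, but some cover one, and the sequences of 7 such promoters are printed as examples. They are 6 of the 26 regions that were called lower in proNeu2 than in each other group (below) and Zeb2, a transcriptional repressor needed for monocyte and dendritic cell development. Each window runs from 250 bases before to 50 bases after an annotated start, is printed 5′ to 3′ on the strand of the gene, lies inside its member region and comes from RefSeq on GRCm38.p6 (mm10). Capitals mark matches to the motifs spelled out below, and a window in lower case throughout held none of them.
Zeb2 (chr2:45117393-45117692, minus strand): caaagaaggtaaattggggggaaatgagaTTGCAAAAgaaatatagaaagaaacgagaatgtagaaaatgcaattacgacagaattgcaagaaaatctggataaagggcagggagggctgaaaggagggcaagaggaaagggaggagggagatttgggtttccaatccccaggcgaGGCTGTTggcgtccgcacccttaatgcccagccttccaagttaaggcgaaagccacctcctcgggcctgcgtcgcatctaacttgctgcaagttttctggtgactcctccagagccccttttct
Col19a1 (chr1:24587388-24587687, minus strand): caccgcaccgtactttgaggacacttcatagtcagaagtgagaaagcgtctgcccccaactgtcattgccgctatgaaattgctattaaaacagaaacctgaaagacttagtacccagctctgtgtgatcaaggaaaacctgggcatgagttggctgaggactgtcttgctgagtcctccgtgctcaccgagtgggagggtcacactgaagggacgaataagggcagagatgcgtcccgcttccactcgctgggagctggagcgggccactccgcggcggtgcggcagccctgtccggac
Tcaf2 (chr6:42644992-42645291, minus strand): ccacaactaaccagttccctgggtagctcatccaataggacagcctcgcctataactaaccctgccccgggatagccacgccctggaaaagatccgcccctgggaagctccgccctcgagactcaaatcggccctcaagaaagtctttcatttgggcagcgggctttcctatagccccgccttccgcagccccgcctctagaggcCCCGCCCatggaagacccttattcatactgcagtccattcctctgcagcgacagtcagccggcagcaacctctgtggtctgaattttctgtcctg
Ptprk (chr10:28074570-28074869, plus strand): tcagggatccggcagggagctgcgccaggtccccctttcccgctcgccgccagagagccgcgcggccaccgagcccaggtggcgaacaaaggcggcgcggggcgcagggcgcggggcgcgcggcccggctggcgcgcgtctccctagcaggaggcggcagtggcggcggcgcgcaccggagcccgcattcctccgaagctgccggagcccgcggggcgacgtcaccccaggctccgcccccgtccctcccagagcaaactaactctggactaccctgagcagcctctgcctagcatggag
Med12l (chr3:59006728-59007027, plus strand): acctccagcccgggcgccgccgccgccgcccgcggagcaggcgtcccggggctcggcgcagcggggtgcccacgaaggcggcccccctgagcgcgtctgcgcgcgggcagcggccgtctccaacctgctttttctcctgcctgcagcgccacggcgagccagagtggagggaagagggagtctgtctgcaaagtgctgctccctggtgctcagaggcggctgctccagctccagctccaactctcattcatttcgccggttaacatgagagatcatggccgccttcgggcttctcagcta
Fmn1 (chr2:113327486-113327785, plus strand): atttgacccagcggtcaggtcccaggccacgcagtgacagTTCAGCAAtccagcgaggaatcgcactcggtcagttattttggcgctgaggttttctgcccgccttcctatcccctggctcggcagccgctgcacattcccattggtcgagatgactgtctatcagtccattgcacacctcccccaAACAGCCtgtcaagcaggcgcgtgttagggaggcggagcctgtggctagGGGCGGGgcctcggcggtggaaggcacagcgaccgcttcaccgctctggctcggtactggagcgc
Mindy4 (chr6:55203133-55203432, plus strand): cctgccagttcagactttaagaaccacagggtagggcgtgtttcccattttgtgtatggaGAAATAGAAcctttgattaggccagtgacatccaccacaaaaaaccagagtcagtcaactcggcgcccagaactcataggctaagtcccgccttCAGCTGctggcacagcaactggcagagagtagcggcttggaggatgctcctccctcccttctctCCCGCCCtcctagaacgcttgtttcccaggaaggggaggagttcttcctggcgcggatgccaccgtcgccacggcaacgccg
Col19a1 encodes a collagen, Ptprk a receptor tyrosine phosphatase, Med12l a Mediator subunit and Fmn1 an actin-nucleating formin. GC content of the 7 windows ran between 49.3% in Zeb2 and 75% in Ptprk, and the number of CpG pairs between 9 and 38.

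At these promoters the values in single libraries were as follows. The Zeb2 region had 3.36 and 4.29 CPM in proNeu2, 14.4 and 14.0 in GMP-MoP, 12.5 and 9.54 in proNeu1, and 13.1 and 13.2 in cMoP. The Col19a1 region had 1.12 and 3.07 CPM in proNeu2, 10.1 and 12.2 in GMP-MoP, 8.58 and 12.7 in proNeu1, and 12.6 and 12.1 in cMoP. The Med12l promoter region had 7.28 and 6.13 CPM in proNeu2, 30.2 and 29.1 in GMP-MoP, 21.1 and 21.6 in proNeu1, and 26.7 and 27.9 in cMoP. In all 3 regions both proNeu2 libraries were below the other 6 libraries, as in 694 of the 718 members, which the rule favours. At Col19a1 the libraries of the 3 high groups overlapped. At Zeb2 the 6 other libraries lay between 9.54 and 14.4 CPM, with proNeu1 lowest.

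Total counts in the 61196 regions were between 1388525 and 1907810 per library, so 1 library's floor of 3 counts was between 1.57 and 2.16 CPM, for counting error only. Reads amplified by PCR are not independent molecules. The proNeu2 libraries resembled each other closely: over the 12099 regions with at least 80 summed counts their counts differed no more than sampling noise (chi-square per degree of freedom 1.01, p = 0.164), against 1.47 for GMP-MoP, 1.31 for proNeu1 and 1.36 for cMoP. Over all regions with a count the chi-square test did find a difference (1.05 per degree of freedom, p = 1.41e-17), so they were counted as 2 libraries. Of the results that rest on them, the number of members called lower in proNeu2 than in all 3 others is also given with the pair summed.

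The members were weakly open in proNeu2, most open in cMoP and GMP-MoP, and in between in proNeu1. The median of the group means was 3.49 CPM in proNeu2, 14.2 in GMP-MoP, 8.72 in proNeu1 and 14.98 in cMoP. By library, the median was 3.36 and 3.68 CPM in proNeu2, 13.3 and 15.2 in GMP-MoP, 9.24 and 8.27 in proNeu1, and 14.2 and 15.8 in cMoP. The same regions took 0.291% and 0.284% of all counts in proNeu2, 1.15% and 1.29% in GMP-MoP, 0.750% and 0.693% in proNeu1, and 1.27% and 1.37% in cMoP. These libraries also chose the members, which widens the gap between proNeu2 and the other groups. For regions chosen on replicate 1 and read in replicate 2 (below), the medians were 5.52 CPM in proNeu2 and 7.0 in proNeu1. With the choice made on replicate 2 they were 5.60 and 7.26 in replicate 1. In sorted bulk cells, fewer cells with an open site and less opening per cell cannot be told apart.

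**Figure D1:**
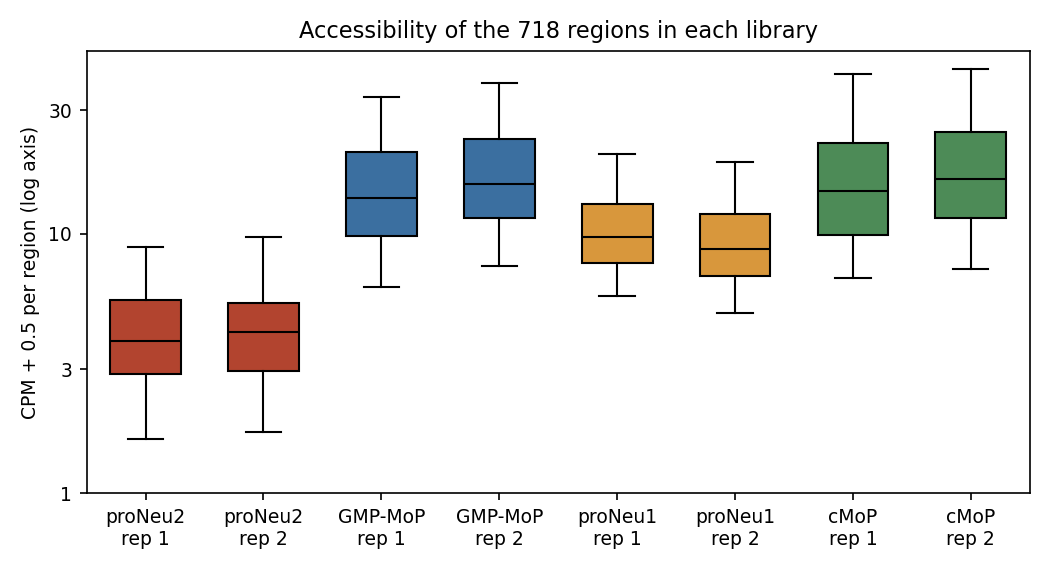
Accessibility of the 718 member regions in each of the 8 libraries, as CPM + 0.5 on a log axis; boxes span the quartiles with the median as a line, and whiskers run between the 5th and 95th percentiles. The medians of the proNeu2 libraries (3.36 and 3.68 CPM before the 0.5 was added) are the lowest, as the rule requires, and those of proNeu1 (9.24 and 8.27) lie below all GMP-MoP and cMoP libraries.

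Few members were without signal in proNeu2. The proNeu2 mean was under 1 CPM in 10 members, under 2 in 65, under 3 in 276 and under 6 in 615, and the highest was 14.6. The median member had 6 counts in each proNeu2 library, so single values carry a large counting error. The smallest of the 3 folds over proNeu2 was at least 2.5 in 295 members, at least 3 in 140 and at least 4 in 54. Both proNeu2 libraries were below all 6 others in 694 members and in 3315 of the 27402 level-only regions. The rule favours this outcome, so the count is only a description. With proNeu2 replicate 1 left out the rule took 1080 regions, 544 of them members, and with proNeu2 replicate 2 left out 1159, 540 of them members.

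At the fold limit, the Zfhx3 region (chr8:108846654-108848919), in a transcription factor gene, was just inside. It had 2.24 and 6.13 CPM in proNeu2, 15.8 and 12.8 in GMP-MoP, 5.94 and 10.8 in proNeu1, and 36.7 and 26.4 in cMoP. The region in Angpt1, which encodes a ligand of the Tie receptor family, was just outside with 5.04 and 7.97 CPM in proNeu2, 17.3 and 28.0 in GMP-MoP, 15.8 and 10.2 in proNeu1, and 28.8 and 29.5 in cMoP. Edn2 and Trdmt1 were the other nearest regions inside, and Gpr171 and Ptprr the other nearest outside. At the level limit, Sh3pxd2a (GMP-MoP mean 6.001 CPM), Snx24 (6.02) and Tmem163 (6.02) were just inside, and Rsph14 (5.95 in GMP-MoP), Frmd4a (5.89 in proNeu1) and a region on chromosome 4 with no gene within 50 kb (5.88 in proNeu1) just outside. Regions just inside and just outside a limit were close in the value that the limit used, but could differ widely in single libraries.

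Many members also had proNeu1 below the other high groups. Of the 718, 309 had at least 1 call among the 3 high groups in the tests below, and 409 had none. proNeu1 had the lowest mean of the 3 high groups in 614 members (85.5%), against 37.0% of the level-only regions. GMP-MoP was lowest in 37 members and cMoP in 67. The 3 means lay within 1.5-fold of each other in 224 members, against 58.1% of level-only regions. In 152 members accessibility was called lower in proNeu1 than in both GMP-MoP and cMoP. The counts 309 and 152 were not made over other regions, so nothing is read from them. By single comparison, proNeu1 was called lower than cMoP in 38.7% of members and 11.3% of level-only regions. It was called higher in 0% and 23.4%. The rule favours proNeu1 as the lowest of the 3 high groups, for the reason given with those tests.

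Against proNeu2 itself, edgeR's quasi-likelihood test at a Benjamini-Hochberg adjusted p under 0.05 called 653 members lower in proNeu2 than in GMP-MoP (20.0% of all tested regions were called lower in that comparison) and 673 lower than in cMoP (27.4% of all). Only 26 members were called lower in proNeu2 than in proNeu1, where 0.0674% of all 47506 tested regions were called lower (32 regions). Those 26 were also called against GMP-MoP and cMoP. These counts describe what the rule chose.

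The number of members called lower in proNeu2 than in all 3 others depended on which libraries were fitted and on the test used. It was 23 to 29 with other scalings, no filter on low counts, only the 2 groups compared or a replicate block. It fell when either proNeu2 library or proNeu1 replicate 1 was left out, and changed less without proNeu1 replicate 2. The 26 became 3 without proNeu2 replicate 1, 0 without proNeu2 replicate 2, 5 without proNeu1 replicate 1 and 13 with the proNeu2 pair summed to 1. DESeq2's Wald test called 0 of them, while 332 members were below an unadjusted p of 0.05 by DESeq2 and 673 by edgeR.

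To read the same measure in libraries that had no part in the choice, the rule was applied to the replicate 1 libraries and the chosen regions were read in the replicate 2 libraries, and the reverse. The rule took 1175 regions from replicate 1, and 198 of them (16.9%) met it again in replicate 2. It took 1187 from replicate 2, and the same 198 (16.7%) met it again in replicate 1. Of the level-only regions of each choice, 1.87% and 2.04% met it in the other libraries.

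The high groups kept most of their distance to proNeu2 in the unused libraries, except proNeu1. Regions chosen on replicate 1 had medians in replicate 2 of 5.52 CPM in proNeu2, 15.2 in GMP-MoP, 7.0 in proNeu1 and 16.3 in cMoP. Regions chosen on replicate 2 had medians in replicate 1 of 5.60 CPM in proNeu2, 12.2 in GMP-MoP, 7.26 in proNeu1 and 13.1 in cMoP. A 2-fold excess over proNeu2 was seen again in 71.1% and 60.7% of regions for GMP-MoP and in 73.2% and 64.2% for cMoP, but in 25.8% and 27.1% for proNeu1. proNeu1 stood above proNeu2 by any amount in 76.4% and 73.1%, against 50.7% of level-only regions in each direction. With 1 library per group on each side, these values have no test.

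**Figure D2:**
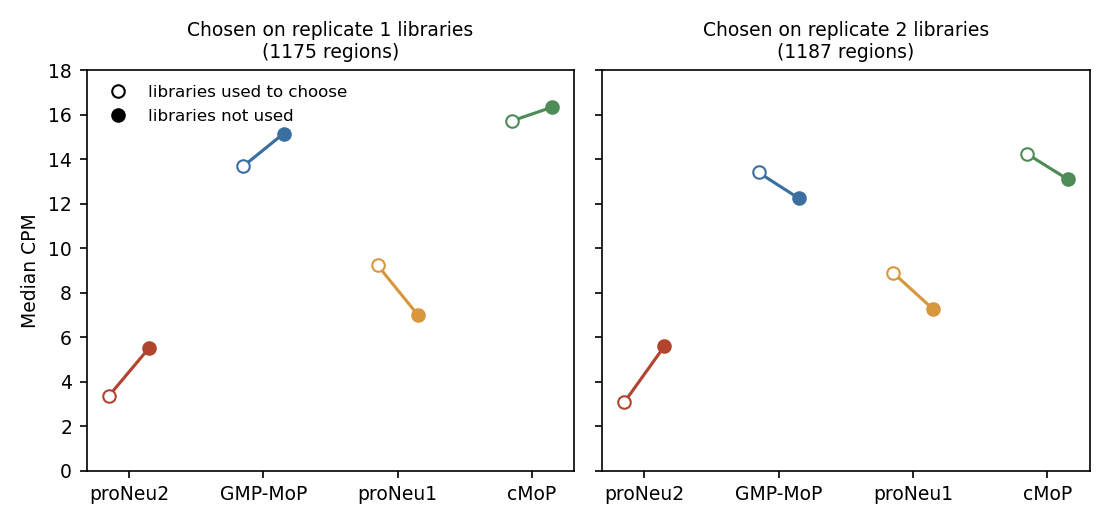
Median CPM of regions chosen by the rule on the libraries of 1 replicate number (left, 1175 regions chosen on replicate 1; right, 1187 chosen on replicate 2), in the libraries used to choose (open circles) and in the libraries not used (filled circles). In the unused libraries proNeu2 (5.52 and 5.60 CPM) and proNeu1 (7.0 and 7.26) lie close together, and GMP-MoP and cMoP lie higher.

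The 3 comparisons among the high groups were not the ones that chose the members, although each group mean entered the rule. Over all tested regions proNeu2 and proNeu1 were close (median log2 fold change of proNeu2 over proNeu1 -0.01). A rule that asks for GMP-MoP and cMoP above proNeu2 therefore favours both above proNeu1, and the directions below are a description. Their counts are set beside those of all regions, and no more is read from them. GMP-MoP was more accessible than proNeu1 at many members and less accessible at none that was called, although its mean was the lower one in 51. In edgeR's quasi-likelihood test, 182 of 718 members were called higher in GMP-MoP (11.6% of all tested regions) and 0 lower (12.5% of all). The median log2 fold change of the members was 0.53, against 0.01 for all tested regions, and GMP-MoP had the higher mean in 92.9% of them. At an unadjusted p under 0.05, 270 members were higher and 0 lower. DESeq2 called 40 higher and 0 lower, and edgeR called 81 higher without GMP-MoP replicate 2 and 91 without proNeu1 replicate 2.

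The region of the gene Tnfrsf1b, a receptor for tumour necrosis factor (chr4:145233295-145234613, in the gene body), had 52.6 and 50.1 CPM in GMP-MoP and 7.92 and 5.09 in proNeu1. It had 2.80 and 3.68 CPM in proNeu2 and 77.1 and 59.0 in cMoP. The proNeu1 and proNeu2 libraries lay together at the low end, and the GMP-MoP and cMoP libraries far above them. The log2 fold change of GMP-MoP over proNeu1 was 2.86 (SE 0.294, adjusted p = 9.85e-16), and this region met the 2-fold part of the rule narrowly, at 2.01.

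Tnr, an extracellular matrix gene, had a region (chr1:159734768-159735813) with 49.0 and 46.0 CPM in GMP-MoP and 8.58 and 5.09 in proNeu1 (log2 2.67, SE 0.295, adjusted p = 5.31e-14). Ank2, a membrane-anchoring ankyrin, had one (chr3:127354980-127355976) with 51.1 and 58.3 CPM in GMP-MoP and 7.26 and 10.8 in proNeu1 (log2 2.48, SE 0.268, adjusted p = 1.78e-14). Wdr49 had one (chr3:75293007-75293922) with 46.8 and 55.4 CPM in GMP-MoP and 11.2 and 8.91 in proNeu1 (log2 2.23, SE 0.266, adjusted p = 3.06e-12). No GMP-MoP library overlapped a proNeu1 library at any of the 4 genes, and the proNeu2 means there were between 2.60 and 4.44 CPM.

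proNeu1 was less accessible than cMoP at many members and more accessible at none that was called. The test called 278 members lower in proNeu1 (21.9% of all tested regions) and 0 higher (20.6% of all), with a median log2 fold change of -0.58, against 0.02 for all tested regions. At an unadjusted p under 0.05, 320 members were lower and 0 higher, and DESeq2 called 115 lower and 0 higher. Without proNeu1 replicate 2, edgeR called 174 lower. The members with the largest log2 change were Tnfrsf1b (-3.30, SE 0.271, adjusted p = 1.03e-24), Ank2 (-3.08, SE 0.243, adjusted p = 2.72e-26), Cpox (-2.82, SE 0.298, adjusted p = 2.06e-16) and Tnr (-2.81, SE 0.283, adjusted p = 9.16e-18). The Cpox region (chr16:58689891-58691066), near the gene of a haem synthesis enzyme, had 5.28 and 7.0 CPM in proNeu1 and 46.6 and 45.9 in cMoP. It had 3.36 and 2.45 CPM in proNeu2 and 17.3 and 26.2 in GMP-MoP, so GMP-MoP stood between the other groups there. Scaling by total counts in place of TMM factors moved the median over all tested regions to 0.14 for GMP-MoP over proNeu1 and to -0.08 for proNeu1 over cMoP, and the member medians with it, to 0.66 and -0.68.

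GMP-MoP and cMoP were close to each other at the members. The test called 5 members higher in GMP-MoP (0.70% of members, 1.32% of level-only regions and 1.98% of all tested regions). It called 22 lower (3.06%, 1.21% and 3.47% in the same order). The median log2 fold change of the members was -0.10, against -0.02 for all tested regions. DESeq2 called 0 in either direction, with 1 higher and 18 lower at an unadjusted p under 0.05, against 29 and 86 by edgeR. Leaving out GMP-MoP replicate 1 gave 3 higher and 9 lower, and leaving out replicate 2 of that group gave 2 and 9. Leaving out cMoP replicate 1 gave 0 and 7, and leaving out cMoP replicate 2 gave 1 and 7.

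Among the 22, Gfi1 encodes a transcriptional repressor needed for neutrophil development. The region near it (chr5:107707844-107708884, 7771 bp from the gene) had 10.8 and 11.7 CPM in GMP-MoP and 27.8 and 21.6 in cMoP (log2 -1.16, SE 0.300, adjusted p = 0.00666). It had 2.24 and 2.45 CPM in proNeu2 and 7.26 and 5.09 in proNeu1, so the 4 groups did not overlap. Cpox (log2 -1.10, SE 0.223, adjusted p = 0.000283), Zfhx3 (-1.18, SE 0.270, adjusted p = 0.00156) and Celf4, an RNA-binding protein gene (-1.28, SE 0.350, adjusted p = 0.0116), were also lower in GMP-MoP.

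Csmd3 (log2 1.04, adjusted p = 0.0489), Pfkp (0.85, adjusted p = 0.0294), Nav3 (0.84, adjusted p = 0.0174) and Gramd1b (0.84, adjusted p = 0.0153) were higher in GMP-MoP. The Pfkp region, in the gene of a phosphofructokinase, had 20.9 and 37.3 CPM in GMP-MoP and 15.2 and 16.9 in cMoP. In each of these 8 regions some alternatives ended the call, DESeq2 among them.

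**Figure D3:**
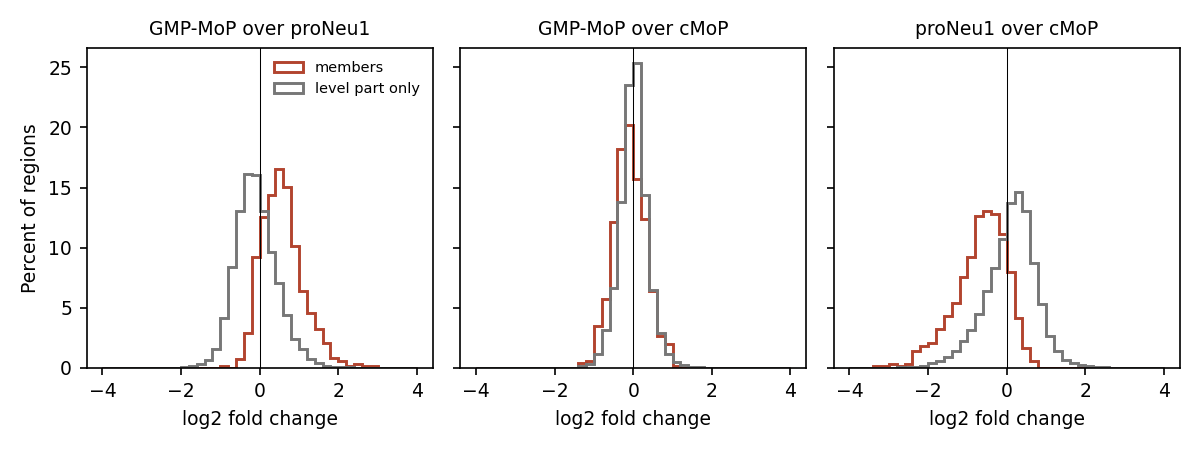
Distribution of the fitted log2 fold change among the 3 high groups, for members (red) and level-only regions (grey), as percent of regions in each bin; the thin line is at 0. The members lie to the right of 0 for GMP-MoP over proNeu1 (median 0.53), around 0 for GMP-MoP over cMoP (-0.10) and to the left of 0 for proNeu1 over cMoP (-0.58).

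A smaller set was sorted out by these calls, which rest on values the rule used and which DESeq2 did not make. Of the 26 regions that edgeR called lower in proNeu2 than in all 3 other groups, 12 had no call among GMP-MoP, proNeu1 and cMoP; this subset was named after its values were seen. With 2 libraries per group, a missing call does not show that the high groups were equal. Those 12 regions were at Col19a1, Fmn1, Med12l, Tcaf2, Ccnd2, Soga3, Rgs7bp, Efna5, Blnk and Prrg1 and at 2 sites with no gene within 50 kb, on chromosomes 6 and 17. Of the 26, 23 met the rule in each replicate number on its own. By position, 9 were at gene ends (within 1 kb of the start or the end of a gene), 8 in gene bodies and 9 outside genes.

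Ccnd2 encodes a D-type cyclin that drives entry into the cell cycle, and its region (chr6:127152088-127153028, at the start or end of the gene) had nearly equal high groups. It had 12.9 and 11 CPM in proNeu2, 34.6 and 34.4 in GMP-MoP, 31.0 and 29.9 in proNeu1, and 32.5 and 34.8 in cMoP. The smallest fold over proNeu2 was 2.55, from 41 proNeu2 counts. It was the only member among 4 regions past the level part at Ccnd2.

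Blnk encodes an adaptor of B cell receptor signalling, and the region 4262 bp from it had 1.12 and 1.84 CPM in proNeu2, 11.5 and 10.5 in GMP-MoP, 7.92 and 14.0 in proNeu1, and 14.2 and 13.7 in cMoP. Efna5 encodes an ephrin ligand, and its region had 3.36 and 1.23 CPM in proNeu2, 17.3 and 15.7 in GMP-MoP, 15.2 and 7.0 in proNeu1, and 12.1 and 19.5 in cMoP. The unlinked region on chromosome 17 (chr17:83990099-83991276) had 16.8 and 10.4 CPM in proNeu2, 60.5 and 57.1 in GMP-MoP, 36.3 and 53.4 in proNeu1, and 63.4 and 56.9 in cMoP. In these 3 regions, too, both proNeu2 libraries were below every other library, and at Blnk and Efna5 the proNeu1 libraries overlapped those of cMoP.

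The other regions among the 26 differed among the high groups as well. The region near Trpa1, an irritant-gated cation channel gene (chr1:14924638-14925544), had 1.12 and 0.00 CPM in proNeu2, from 2 counts in all. It had 32.4 and 28.0 CPM in GMP-MoP, 13.2 and 7.63 in proNeu1 and 36.2 and 44.8 in cMoP, and proNeu1 was lower than cMoP (log2 -1.88, SE 0.272, adjusted p = 1.12e-09). Fam110b had 4.48 and 5.52 CPM in proNeu2, 28.8 and 29.1 in GMP-MoP, 24.4 and 15.9 in proNeu1 and 35.1 and 40.1 in cMoP. At both, no library of 1 group overlapped another group, with proNeu2 lowest and proNeu1 next.

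**Figure D4:**
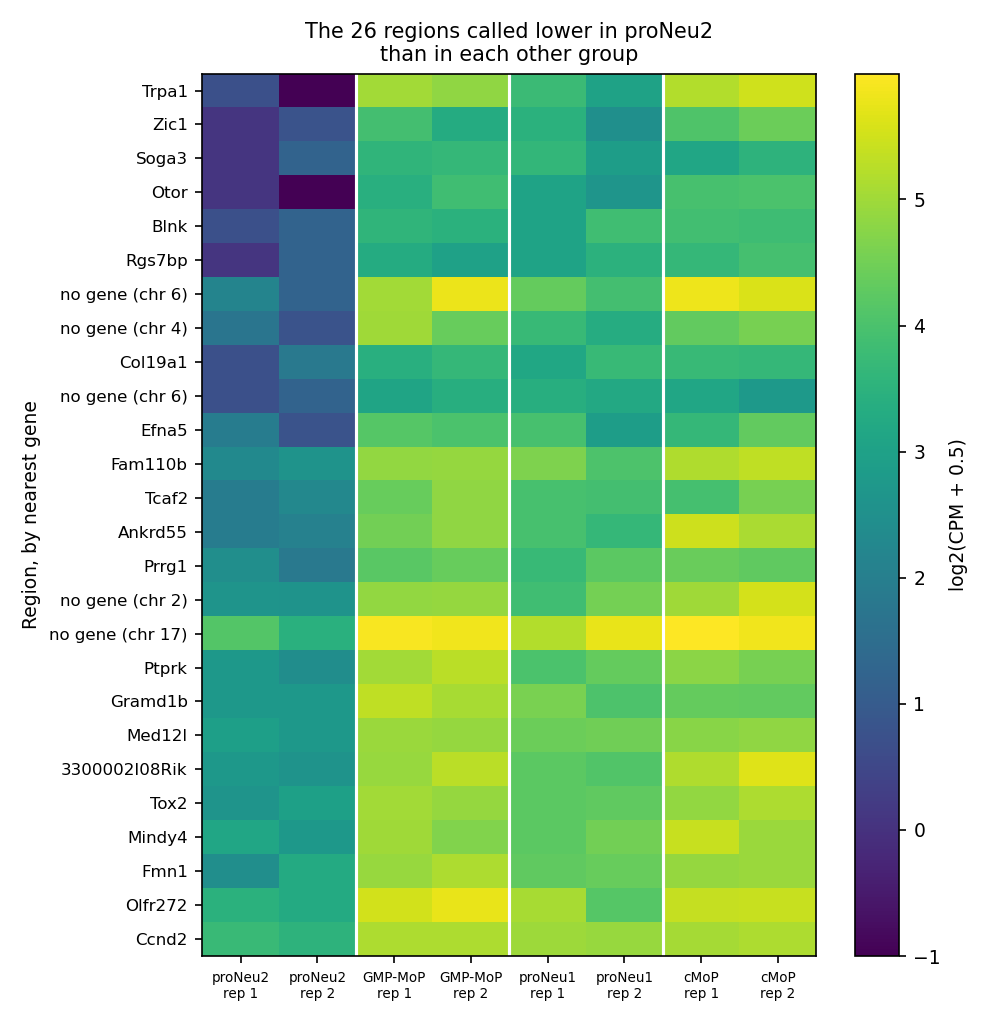
Accessibility of the 26 regions called lower in proNeu2 than in each other group, as log2(CPM + 0.5), with a row for each region (named by its nearest gene within 50 kb, or by chromosome where there is none) and a column for each library. The first pair of columns, proNeu2, is the darkest in every row, and the proNeu1 columns are darker than those of GMP-MoP and cMoP in many rows.

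Members with the largest fold over proNeu2 had very few proNeu2 reads. Beside Trpa1, Soga3, Blnk and Rgs7bp they were at Zic1, a neural transcription factor gene, Otor, Serpina3f, Fbxl13, Nrg1 and Jade3, with 1 to 5 proNeu2 counts over both libraries. Nrg1, a growth factor gene, had 1.12 and 0.613 CPM in proNeu2, 22.3 and 18.6 in GMP-MoP, 6.6 and 6.36 in proNeu1, and 18.9 and 17.4 in cMoP. Zic1 had 0.560 and 1.23 CPM in proNeu2, 14.4 and 9.32 in GMP-MoP, 10.6 and 5.09 in proNeu1, and 16.2 and 21.1 in cMoP. With so few counts the size of these folds is uncertain, and no fold is given.

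The 10 gene-linked members with the most signal in the high groups were all lower in proNeu1 than in cMoP. They were at Gprin3, Ank2, Siglech, Rundc3b, Trit1, Dppa3, Tnfrsf1b, Akr1e1, Triqk and Plpp3; levels are per region and not per length. The region near Siglech, a lectin gene of plasmacytoid dendritic cells, had 5.60 and 6.74 CPM in proNeu2, 54.7 and 53.6 in GMP-MoP, 14.5 and 14.6 in proNeu1, and 58.7 and 66.4 in cMoP. The region at the promoter of Rundc3b had 15.1 and 14.1 CPM in proNeu2, 42.5 and 54.8 in GMP-MoP, 31.7 and 27.4 in proNeu1, and 46.6 and 56.9 in cMoP. By the test, proNeu1 was lower than cMoP in all 10 and lower than GMP-MoP in 8, Akr1e1 and Triqk being the exceptions (adjusted p = 0.21 and 0.0725). Of all members 38.7% and 25.3% had these calls, and of all tested regions 21.9% and 11.6%. The ranking used the same values and favours regions with high cMoP or GMP-MoP, so nothing is read from these counts.

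Genes with known roles in blood cells held members at about the share of all regions. In 15 gene lists with 368 genes, 916 regions met the level part and 21 of them were members (2.29%, against 2.55% of all regions past the level part). Regions were linked to the nearest protein-coding gene within 50 kb, which does not show what gene a region regulates. None of the 24 regions at primary granule genes and none of the 47 at later granule and neutrophil maturation genes was a member, nor any of 159 at signalling genes, 40 at ribosome and translation genes, 12 at T and NK cell markers and 14 at mast cell, basophil and eosinophil markers.

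Of 135 regions at stem and early progenitor genes, 6 were members: 2 at Ikzf2, 2 at Hlf, 1 at Meis1 and 1 at Tal1, all transcription factors of stem and early progenitor cells. The Ikzf2 region in the gene body (chr1:69654722-69655921) had 3.36 and 3.07 CPM in proNeu2, 15.8 and 20.4 in GMP-MoP, 11.2 and 7.0 in proNeu1, and 19.9 and 18.5 in cMoP. The Meis1 region had 2.80 and 2.45 CPM in proNeu2, 7.20 and 7.58 in GMP-MoP, 7.26 and 5.09 in proNeu1, and 6.81 and 5.80 in cMoP. proNeu1 was lower than cMoP at the first (log2 -1.0, SE 0.331, adjusted p = 0.00917), while Meis1 had even high groups (largest log2 difference 0.19 with adjusted p = 0.882).

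Of 89 regions at monocyte and macrophage genes, 5 were members, at Zeb2, Fcgr1, Ms4a4c, Emb and Vcan. The region near Fcgr1, the high-affinity IgG receptor gene (chr3:96300365-96301556), had 2.24 and 4.29 CPM in proNeu2, 25.2 and 28.6 in GMP-MoP, 9.24 and 6.36 in proNeu1, and 45.6 and 38.5 in cMoP. proNeu1 was lower than GMP-MoP there (GMP-MoP over proNeu1 log2 1.67, SE 0.324, adjusted p = 1.96e-05). Emb, which encodes a membrane glycoprotein of the immunoglobulin superfamily, had 7.84 and 9.20 CPM in proNeu2, 20.2 and 26.2 in GMP-MoP, 21.1 and 17.2 in proNeu1, and 17.3 and 16.9 in cMoP, with no call among the high groups.

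Of 143 regions at myeloid transcription factor genes, 3 were members, at Ikzf1, Zeb2 and Gfi1. The Ikzf1 region, 16314 bp from that lymphoid and myeloid regulator, had 1.12 and 3.07 CPM in proNeu2, 7.92 and 15.7 in GMP-MoP, 5.94 and 7.63 in proNeu1, and 11.5 and 12.1 in cMoP. The receptor list gave Il1r1 and Tnfrsf1b among 107 regions, the dendritic cell list Siglech among 53, the cell cycle list Ccnd2 among 84 and the adhesion list Itga4, an integrin subunit gene, among 83. Of markers of other blood cells, Blnk was the member among 7 B cell regions. How far other cell types in a sort contributed was not tested.

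Most genes with a member had 1. The 718 regions were linked to 535 genes, of which 493 had 1 member, 35 had 2 and 7 had 3 or more, and 26 members lay within 10 kb of another. Ppargc1a, a coactivator of mitochondrial biogenesis, had 5 members among its 11 regions past the level part, and Med12l had 4 among 9. Slc8a1, a sodium-calcium exchanger gene, had 3 among 6, Slc44a5 3 among 5 and Nbea 3 among 6. Fbxl17 and Rftn1 also had 3.

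Calls among the high groups differed between members of 1 gene, but a difference between regions was not tested. Of the Ppargc1a regions, the one at chr5:51494405-51495211 had 9.52 and 3.68 CPM in proNeu2, 31.7 and 36.1 in GMP-MoP, 15.8 and 12.7 in proNeu1, and 26.2 and 30.05 in cMoP. The one at chr5:51908645-51909411 had 2.24 and 3.68 CPM in proNeu2, 5.76 and 10.5 in GMP-MoP, 9.89 and 9.54 in proNeu1, and 6.29 and 8.43 in cMoP. proNeu1 was lower than cMoP at the first (log2 -0.90, SE 0.271, adjusted p = 0.00387) and had the higher mean at the second (log2 0.48, SE 0.404, adjusted p = 0.353). In the other Ppargc1a members, and in those of Med12l, proNeu1 had the lowest mean of the high groups. At Med12l the promoter region had no call among the high groups, while the region at chr3:59054576-59055516, in the gene body, was lower in proNeu1 than in cMoP (log2 -1.73, SE 0.357, adjusted p = 1.75e-05), with 1.68 and 1.23 CPM in proNeu2, 22.3 and 14.6 in GMP-MoP, 9.24 and 3.18 in proNeu1, and 17.8 and 25.8 in cMoP.

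By position, 18.9% of the members were within 1 kb of the start or the end of a gene (95% Clopper-Pearson interval 16.1 to 22.0%), against 37.9% of the level-only regions (37.3 to 38.4%). Gene bodies held 40.8% of members and 33.2% of level-only regions, and 40.3% of members and 28.9% of level-only regions lay outside genes. A RefSeq promoter window was covered in part by 17.0% of members and 33.2% of level-only regions. Intervals treat regions as independent.

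The members were also less open regions than the level-only ones, and position moved with level. Among regions whose mean CPM lay between 9.76 and 18.3, the quartiles of the members, 17.6% of 358 members and 18.4% of 9070 level-only regions were at a gene end, and 14.5% of each covered a promoter window. Median width was 1007 bp for members and 1140 bp for level-only regions, and at matched level 1004.5 and 983 bp. The share of regions past the level part that were members was 4.80% on chromosome 3 and 4.05% on X at the high end, and 1.03% on chromosome 19 at the low end (8 of 775 regions).

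**Figure D5:**
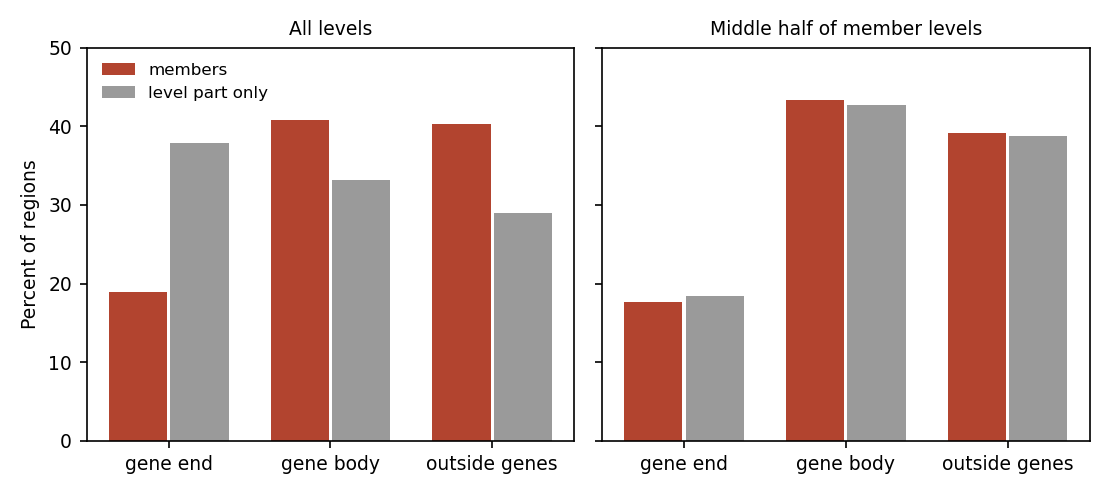
Percent of regions at gene ends (within 1 kb of the start or the end of a gene), in gene bodies and outside genes, for members (red) and level-only regions (grey), over all levels (left) and for regions whose mean CPM lay between 9.76 and 18.3 (right). Over all levels 18.9% of members and 37.9% of level-only regions were at gene ends; at matched level the shares were 17.6% and 18.4%.

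The promoter windows covered by members numbered 149, for 135 genes. Their median GC content was 59.7%, against 61.7% in 12183 windows of level-only regions and 52.7% in all 32851 mouse windows, and the median number of CpG pairs was 16, 22 and 7 in the same order of sets. At matched level the median GC content was 61.0% in 67 member windows and 57.7% in 1570 level-only windows.

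Motifs were sought on both strands of each window, with N for any base; the ETS core and the PU.1 form share their last 6 letters and differ before them, and no other pair of forms was screened for overlap. The ETS core CCGGAAGT, bound by factors of the ETS family, was in 1.34% of member windows (2 windows), 8.92% of level-only windows and 3.89% of all windows. The overlapping PU.1 form GAGGAAGT was in 0.671%, 3.497% and 3.20% of the same sets, and the KLF/SP box GGGCGGG in 39.6%, 48.9% and 25.6%. The C/EBP form TTGCNNAA was in 12.8%, 8.13% and 10.8%, the RUNX form TGTGGTTT in 4.03% (6 windows), 1.22% and 1.78%, and the E-box CAGCTG in 18.8%, 14.1% and 16.3%.

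At matched level the ETS core was in 0 of 67 member windows and 6.37% of level-only windows, PU.1 in 1.49% and 4.14%, KLF/SP in 37.3% and 36.7%, C/EBP in 14.9% and 10.2% and RUNX in 4.48% and 2.10%. The IRF form was in 0 and 8.85%, and the E-box CAGCTG in 17.9% and 17.4%. The 149 windows are too few to fix such shares closely, and a match is a run of letters and not a bound site. The other forms are given in the order member, level-only and all windows. MYB AACNGCC was in 10.7%, 13.7% and 12.1%, the E-box CACGTG in 8.72%, 10.8% and 7.15%, AP-1 TGANTCA in 5.37%, 4.37% and 7.81%, and IRF GAAANNGAA in 4.03%, 6.90% and 8.56%. CRE TGACGTCA was in 2.01%, 3.316% and 1.79%, the form AGATAAG of GATA factors in 1.34%, 1.53% and 3.04%, GFI1 AATCACNGC in 1.34%, 1.11% and 0.919%, the CTCF core CCACCAGGG in 2.01%, 0.772% and 0.645%, NRF1 GCGCATGCG in 0%, 4.06% and 1.75%, and YY1 AAGATGGCG in 0%, 3.26% and 1.403%.

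In the sequences printed above, the Zeb2 window held a C/EBP match (bases 30 to 37, counted from the 5′ end of the window) and an MYB match on the opposite strand. The Fmn1 window held a C/EBP match on the opposite strand, an MYB match and a KLF/SP match. The Tcaf2 window held a KLF/SP match on the opposite strand, and the Mindy4 window held a KLF/SP match on the opposite strand, an IRF match and the E-box CAGCTG. None of the 7 windows held the ETS core or the PU.1 form, which says only that these letters are not in them.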

How the data were processed

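Accessibility was measured by ATAC-seq in 8 mouse bone marrow libraries, 2 for each of 4 groups taken from the labels. The deposited files give a raw count per region, with whole numbers whose totals differ between libraries, for 61196 regions shared by all files. Per the submitters' processing notes, the authors worked on mm10 with Bowtie2 2.3.5.1, HOMER 4.11 and edgeR 3.32.1. How reads were shifted for Tn5, how duplicates were treated and how regions were called are steps not given in the sources used here; each could change the counts.

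CPM is a count divided by its library's total over the regions, per 1000000, and levels use it. The count test was that of edgeR 4.0.16 under R 4.3.3, with TMM factors, filterByExpr at a minimum count of 10 and a robust quasi-likelihood fit over all 8 libraries, 1 mean per group. Of the regions, 47506 were tested, all 718 members included, and p-values were adjusted over them by the Benjamini-Hochberg method. A log2 fold change is that of the fit, and SE is that value over the root of its F statistic. DESeq2 1.42.0 was an alternative, as were other scalings, filters, limits, a replicate block and leaving out each library.

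Genes were the nearest protein-coding RefSeq interval within 50 kb, and promoter windows came from RefSeq on GRCm38.p6. No genome sequence was used, so regions outside those windows have no sequence here. Matched level means a mean CPM over GMP-MoP, proNeu1 and cMoP between the quartiles of the members. Regions named in the text are the 10 of largest fold over proNeu2 and the 10 of highest level linked to a gene, up to 4 per gene list, up to 4 per direction of each comparison among the high groups, the genes with most members and the nearest regions at each limit; the 26 regions called lower in proNeu2 than in all others were added after their values were seen. The motif list was shortened after matches had been seen. The members and the gene lists were chosen with earlier results of these data known. The result of 1 gene list is not reported here.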

Additional observations from a re-analysis of the deposited data

How the results depend on the processing

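Of 87 calls at named regions among the high groups, 34 were kept in every alternative fit, and no result reversed. The 718 members became 2326 with a fold limit of 1.5, 140 with a limit of 3, 1386 with a level limit of 4 CPM, 249 with a limit of 10 CPM, 1175 on replicate 1 alone and 1187 on replicate 2 alone; TMM-scaled CPM gave 678, of which 621 were shared, and DESeq2 size factors 570, of which 563 were shared. With DESeq2's Wald test, 40 members were higher in GMP-MoP than in proNeu1, 0 and 0 were higher and lower in GMP-MoP against cMoP, 115 were lower in proNeu1 than in cMoP and 0 of the 26 were called lower in proNeu2 than in all others. With DESeq2 size factors in edgeR, 3 members were higher in GMP-MoP than in cMoP, and with only the 2 groups fitted 11 were lower. With the proNeu2 pair summed, an alternative chosen after seeing the data, 13 of the 26 were called. The cause of these changes was not tested. Leaving out 1 library at a time gave 666 to 1159 members, 81 to 182 higher in GMP-MoP than in proNeu1, 0 to 6 higher and 7 to 20 lower in GMP-MoP against cMoP, 174 to 272 lower in proNeu1 than in cMoP, and 0 to 27 called lower in proNeu2 than in all others; where a group was left with 1 library, that library was assumed to spread as the other groups do. With the replicate number as a block the counts were 183, 5 and 22, 282 and 29 in the same order of comparisons. The numbers did not pair the libraries: same-numbered libraries deviated together with correlations between -0.02 and 0.10. Depth limits the proNeu2 values, with a median of 6 counts per member and library, as the rule took regions low there.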
